A study of Homo sapiens with 3 samples.

Results

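The BCL2 family decides whether the outer membrane of the mitochondrion stays closed. Its transcripts were followed in THP-1 macrophages that were left untreated, given imiquimod (IMQ), or given IMQ after DMD. The family was taken as 10 genes by symbol: BCL2, BCL2A1, BCL2L1, and MCL1 (pro-survival), BAX and BAK1 (effectors), and BCL2L11, BID, BBC3, and PMAIP1 (BH3-only). All 10 were on the array, among 34757 genes named there, and 16 of the 58201 transcript probes belonged to them. BCL2, BCL2A1, BAX, and BID had more than 1 probe, as did BCL2L11.

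THP-1 is a human monocytic leukemia line. In all conditions it had been turned into macrophage-like cells with the phorbol ester PMA at 100 ng/mL for 24 to 36 h and rested overnight. IMQ is a ligand of TLR7, and DMD is a benzenoid isolated from the mushroom Antrodia cinnamomea. Cells without treatment (Ctrl), cells with IMQ alone (IMQ), and cells pretreated with DMD and then given IMQ (IMQ+DMD) were each labeled 4 h and each hybridized to 1 one-color array of the same slide. The labels write the last condition as IMQ+X, which was read as DMD because the treatment protocol names no other agent. The labels give no dose of either compound, there was no array with DMD alone, and the general methods of the study give a longer exposure to IMQ than 4 h.

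With 1 array per condition, no difference had a replicate check and no p-value was computed. Differences are therefore between single arrays. The error given beside a log2 difference is the SD expected from repeated spots of the same brightness, which covers the noise within arrays only and not the spread between cultures. A gene was called higher or lower at 2-fold or more, that is at a log2 difference of 1 in size. Fewer cells with a transcript and less of it per cell could not be told apart in this bulk RNA.

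Pro-survival proteins of the family bind and hold back the effectors. BH3-only proteins respond to stress, and they either occupy the pro-survival proteins or act on the effectors directly. Once released, BAX and BAK1 form pores in the mitochondrial outer membrane, cytochrome c leaves, and the caspases are switched on. In macrophages and other myeloid cells, MCL1 and BCL2A1 are known as survival factors, both proteins turn over fast, and BCL2A1 is a target gene of NF-κB.

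Probe sequences are given for BCL2A1, MCL1, and BAX, the genes with the largest differences, since what a probe reads depends on where in the transcript it lies. Each probe has 60 bases, written 5′ to 3′ in the sense of the transcript. BCL2A1 probe 2, which lies in coding sequence, is printed in full, and for the others the first 30 bases are printed. No letters are in capitals, because no motif was searched. Positions are those of the array design on hg19. No annotation of that build was used here, so exons and untranslated regions were not assigned to the other probes.
BCL2A1 probe 1 (first 30 of 60 bases, chr15:80253220-80253252, minus strand): aggaaagatctgtgaaatgctcttctgtcc
BCL2A1 probe 2 (all 60 bases, chr15:80263136-80263195, minus strand): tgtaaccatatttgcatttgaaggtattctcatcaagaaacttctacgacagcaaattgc
MCL1 (first 30 of 60 bases, chr1:150547622-150547681, minus strand): tatcgttcttgatcataagccgcttattta
BAX probe 1 (first 30 of 60 bases, chr19:49464904-49464963, plus strand): tgccttggactgtgtttttcctccataaat
BAX probe 2 (first 30 of 60 bases, chr19:49464454-49464513, plus strand): ctgcctctggaattgctcaagttcattgat

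The probes of BCL2A1 lay 9883 bases apart in the genome and shared 1 listed transcript. BCL2A1 probe 1 has a listed span shorter than its 60 bases. The BAX probes lay 390 bases apart and shared none of their listed transcripts (0), of which the array design lists at most 4 for a probe. The array design lists 4 transcripts for BAX probe 1 and 3 for BAX probe 2. Its description names only 1 of them for each, variant sigma for BAX probe 1 and variant beta for BAX probe 2. Neither probe is thus a reading of the named variant alone.

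On each of the 3 arrays all 16 probes stood well above background, and none of their spots was saturated or marked as an outlier (0 of each). Over the whole array, 66.6% to 72.0% of the probes were well above background. The macrophage and monocyte markers CD14, CSF1R, SPI1, ITGAM, TYROBP, and FCER1G were detected on every array at log2 intensities of 13.2 to 17.9. CD68 and LYZ were not matched by name. Of the 17 markers of T cells, B cells, keratinocytes, fibroblasts, endothelium, and erythroid cells, the brightest were PECAM1 and CD79A at about 12 log2 units, COL3A1 was well above background on no array, and the summed intensity was 12409 in Ctrl, 10883 in IMQ, and 10937 in IMQ+DMD. In IMQ against Ctrl, 14 of the 16 that could be compared were lower (median -0.24), as were 5 of the 6 macrophage markers (median -0.25). In IMQ+DMD against IMQ, 13 of the 16 were higher (median 0.24), and the median of the macrophage markers was 0.02. CD14 was at -0.71 in IMQ against Ctrl, and it was 2.32-fold lower in IMQ+DMD than in Ctrl. The part of these shifts in the differences below was not tested.

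**Figure D1:**
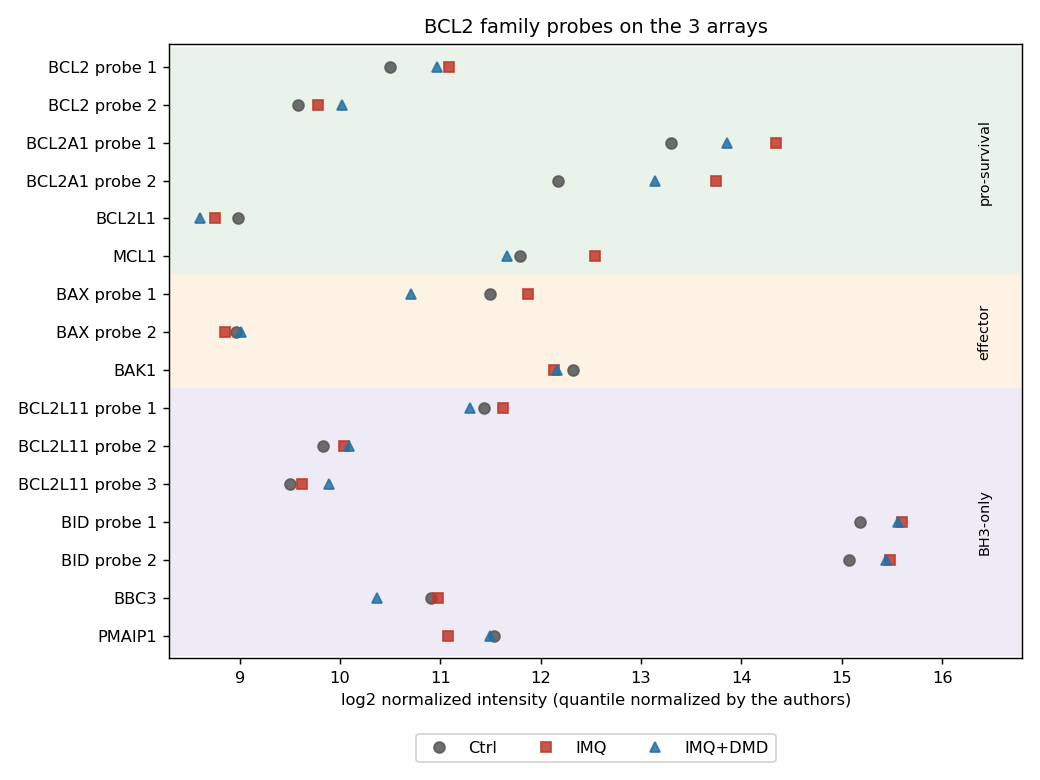
Log2 normalized intensity of the 16 BCL2 family probes (rows, grouped by role) on the Ctrl (circles), IMQ (squares), and IMQ+DMD (triangles) arrays, 1 array each. BCL2A1 and MCL1 are brightest on the IMQ array, and BAX probe 1 is dimmest on the IMQ+DMD array. Positions of different probes along the axis are not comparable as transcript levels.

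The first comparison asked how IMQ altered the family. BCL2A1 was the 1 member of 10 that was at least 2-fold higher, against a background of 4.18% of the 26548 genes compared. No member (0) was at least 2-fold lower, where the background was 3.92%. With the normalization of the deposited table, 7 members were higher and 3 lower in IMQ, where 47.5% of all genes were higher. The median log2 difference over all genes was -0.02. Over the members it was 0.29, which turned to -0.09 when the arrays were left unscaled and to -0.18 when they were scaled to the spike-in probes. By role, the median on the deposited scale was 0.67 for the pro-survival genes, 0.10 for the effectors, and 0.13 for the BH3-only genes. For 9 of the 10 members the difference was larger than 2 SD of the spot noise. The share of all genes beyond that limit was not computed, so this count does not set the members apart.

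The scale between arrays mattered here. Spike-in probes read control RNA that is added to each sample. If the arrays were left unscaled, with no normalization between them, the median gene was at -0.49, and if they were scaled to the spike-in probes it was at -0.58. The share of genes called was then 1.85% higher and 15.8% lower on the unscaled arrays. It was 1.62% higher and 19.7% lower on the spike-in scale. These settings shift all genes of an array alike. Relative to the median gene, BCL2A1 was then 1.21 and MCL1 0.87 higher in IMQ, beside 1.06 and 0.76 on the deposited scale. The values below are on the deposited scale, where the median gene stays near 0.

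BCL2A1, a pro-survival gene, had the largest difference. Its probe 1 read 10043 in Ctrl, 20756 in IMQ, and 14832 in IMQ+DMD, in normalized intensity. The log2 difference between IMQ and Ctrl was 1.05 ± 0.06, or 2.07-fold. Probe 2, in coding sequence, read 4617, 13736, and 9015 in the same order. It was 2.98-fold higher in IMQ, a log2 difference of 1.57 ± 0.06. Both probes were thus brightest with IMQ and in between with IMQ+DMD. Without normalization probe 1 was 0.72 higher and with spike-in scaling 0.63 higher, which is below 2-fold in both.

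MCL1 keeps BAK1 and the BH3-only proteins in check, and its transcript is short-lived. Its probe read 3555 in Ctrl, 5968 in IMQ, and 3245 in IMQ+DMD. The IMQ array was 1.68-fold above Ctrl, a log2 difference of 0.75 ± 0.07, and on the deposited scale the IMQ+DMD array was near Ctrl. The IMQ difference shrank to 0.29 on the spike-in scale and to 0.38 on the unscaled arrays. The pixels of the MCL1 spot were less even than those of most spots of like brightness, at the 98.8th percentile of pixel spread in Ctrl, the 84.6th in IMQ, and the 94.7th in IMQ+DMD.

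BCL2, the founding member, was measured by 2 probes that shared none of their listed transcripts (0). Probe 1 (hg19, chr18:60790723-60790782, minus strand), assigned to transcript variant alpha, read 1449 in Ctrl, 2170 in IMQ, and 1998 in IMQ+DMD. Probe 2 (chr18:60985401-60985460, minus strand), assigned to variant beta, read 768, 880, and 1035. These assignments are those of the array design, which lists 3 transcripts for probe 2. Whether probe 2 also reads variant alpha was not tested, so the probes are not separate readings of the variants. Against Ctrl, probe 1 was 0.58 ± 0.07 higher in IMQ and probe 2 was 0.20 ± 0.08 higher. The difference of probe 1 shrank to 0.20 on the unscaled arrays and to 0.11 on the spike-in scale. BCL2L1 (chr20:30253324-30253383, minus strand), which encodes BCL-xL, read 507, 432, and 389 and was the 1 pro-survival gene that was lower in IMQ, by a log2 difference of -0.23 ± 0.08.

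Among the effectors, BAX probe 1 read 2879 in Ctrl and 3758 in IMQ, a log2 difference of 0.38 ± 0.06 that turned to -0.09 with spike-in scaling. BAX probe 2 read 498 and 463, a difference of -0.11 ± 0.08. On this scale the probes of the gene lay on opposite sides of 0. BAK1 (chr6:33540585-33540644, minus strand) read 5108 in Ctrl and 4480 in IMQ, a difference of -0.19 ± 0.06.

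The BH3-only genes went different ways. BID is cut by caspase-8 and so ties death receptors to the mitochondrion. Its probes read 37198 and 34366 in Ctrl and 49583 and 45707 in IMQ, and both were 0.41 ± 0.06 higher. The probe that stands for BID was only 0.11 higher on the unscaled arrays and 0.02 higher on the spike-in scale. The spans of the BID probes (chr22:18218265-18218324 and chr22:18218182-18218241, minus strand) lay 23 bases apart and shared all 4 of their listed transcripts. BCL2L11 (BIM), which binds every pro-survival member, was 0.11 to 0.21 higher over its 3 probes, and the probe that stands for it turned from 0.19 to -0.19 on the unscaled arrays and -0.28 on the spike-in scale. BBC3 (PUMA; chr19:47724174-47724233, minus strand), a BH3-only gene induced by stress, read 1921 in Ctrl and 2020 in IMQ, a difference of 0.07 ± 0.07 that was within the noise and turned to -0.32 on the unscaled arrays and -0.41 on the spike-in scale. PMAIP1 (NOXA; chr18:57570691-57570750, plus strand), which neutralizes MCL1, read 2968 in Ctrl and 2162 in IMQ, a difference of -0.46 ± 0.07 and the lowest of the family. It was at -0.85 on the unscaled arrays and -0.93 on the spike-in scale.

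**Figure D2:**
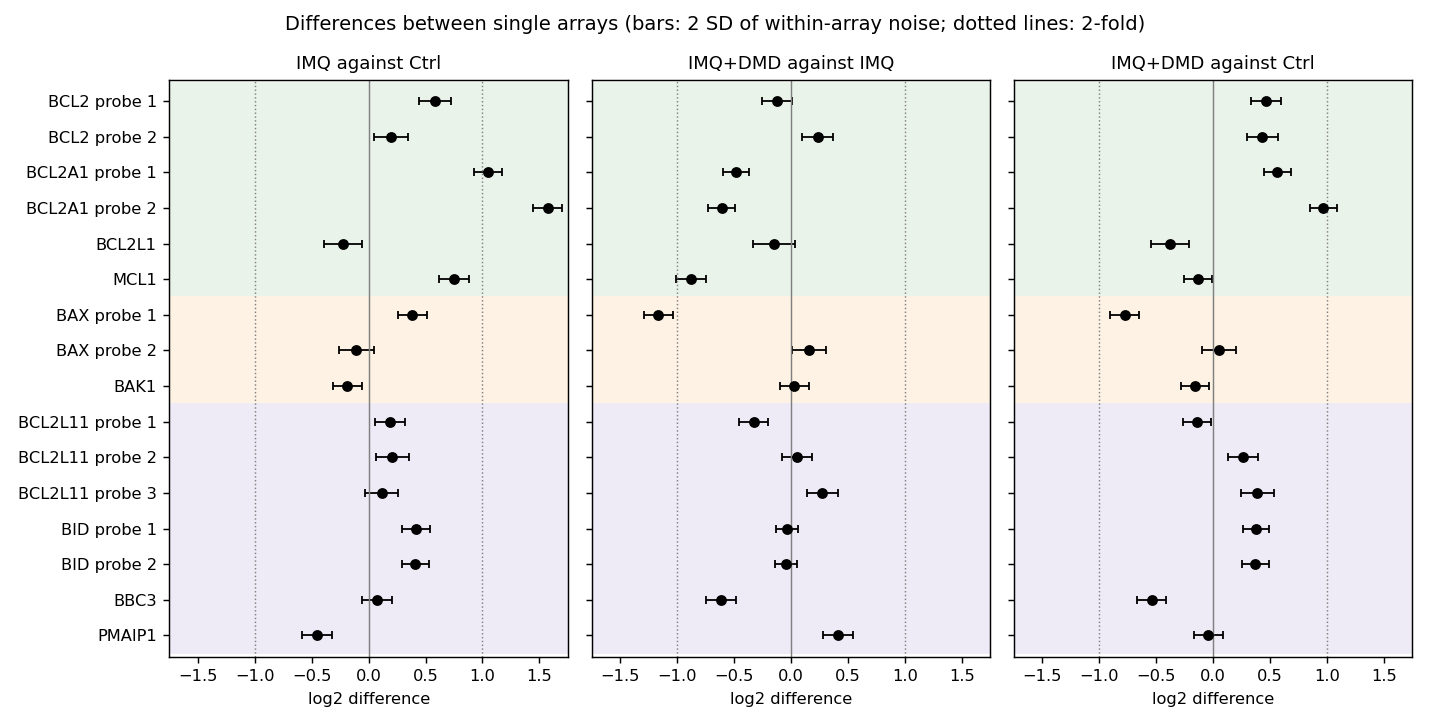
Log2 difference of each BCL2 family probe (rows, shaded by role as pro-survival, effector, and BH3-only from top to bottom) for IMQ against Ctrl, IMQ+DMD against IMQ, and IMQ+DMD against Ctrl. Bars are 2 SD of the spot noise, 1 array per condition. BCL2A1 lies right of the 2-fold line in the first panel, and BAX probe 1 lies left of it in the second while BAX probe 2 does not.

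The second comparison asked how DMD altered the family in cells given IMQ. It shares the IMQ array with the first, so a high reading on that array raises the first difference and lowers the second. BAX was the 1 member of 10 that was at least 2-fold lower, where the background was 1.15% of 26454 genes. No member (0) was at least 2-fold higher, where the background was 1.08%. In all, 8 members were lower and 2 higher on the deposited scale, where 49.5% of all genes were higher. The median was -0.24 against -0.00 over all genes. By more than 2 SD of the noise 6 members differed, and the share of all genes beyond that limit was not computed. The background split moved with the scaling, to 3.46% higher and 0.53% lower when each array was scaled to its 75th percentile, 3.80% and 0.49% on the unscaled arrays, and 6.36% and 0.34% on the spike-in scale.

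BAX carried the largest difference of the family. Its probe 1 was printed 10 times on each array, which gives 10 readings per condition of the same labeled RNA. Before normalization these spots read 3324 to 3649 in Ctrl (median 3491), 3376 to 3617 in IMQ (median 3499), and 1349 to 1499 in IMQ+DMD (median 1467). The spots of the IMQ+DMD array all lay below those of both other arrays, and the SD of their log2 values was 0.05. After normalization the probe read 2879, 3758, and 1677, so that IMQ+DMD was 2.24-fold lower than IMQ, a log2 difference of -1.16 ± 0.06. This placed BAX at the 0.66th percentile of all genes. Of the 292 probes with 10 spots that both arrays detected well above background, 2 were at least 2-fold lower, those of BAX and PLAT, and none (0) was at least 2-fold higher.

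BAX probe 2 did not share that difference. It read 498 in Ctrl, 463 in IMQ, and 516 in IMQ+DMD, and the difference between IMQ+DMD and IMQ was 0.16 ± 0.08. When both probes were averaged, BAX was -0.50, short of 2-fold. The printed probe sequences come from separate stretches of the gene, and which transcripts gave the lower reading of probe 1 was not tested. BAK1, the other effector, read 4575 in IMQ+DMD and differed from IMQ by 0.03 ± 0.06, and this turned to -0.11 with scaling to the 75th percentile and -0.09 on the unscaled arrays.

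**Figure D3:**
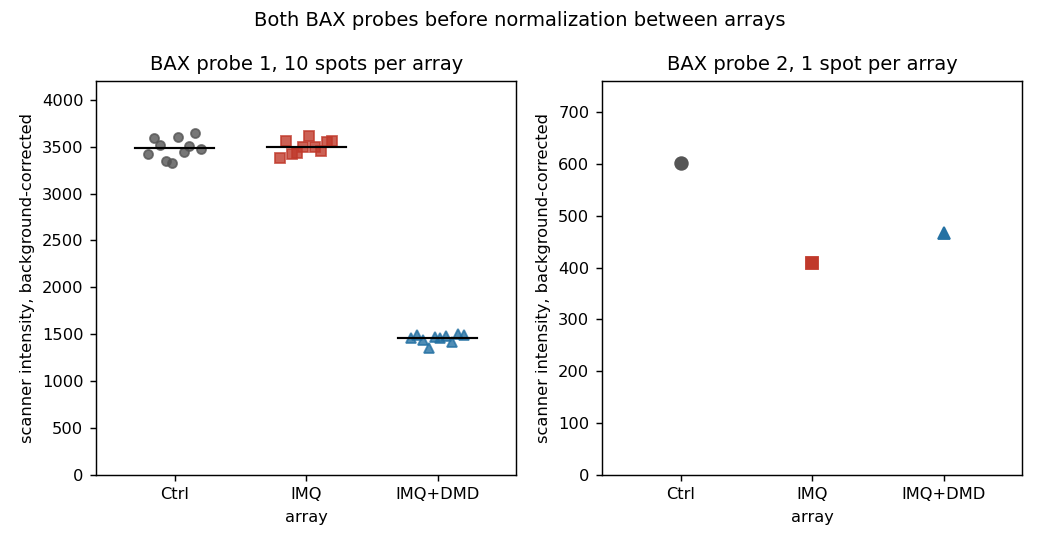
Background-corrected scanner intensity, before normalization between arrays, of BAX probe 1 (left, 10 spots per array, line at the mean) and BAX probe 2 (right, 1 spot per array) on the Ctrl, IMQ, and IMQ+DMD arrays. The IMQ+DMD spots of probe 1 sit between 1349 and 1499, below all spots of the other arrays, whereas probe 2 reads 602, 409, and 466.

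Among the pro-survival genes, MCL1 was 1.84-fold lower in IMQ+DMD than in IMQ, a log2 difference of -0.88 ± 0.06 at the 1.80th percentile of all genes. It passed 2-fold with scaling to the 75th percentile (-1.03) and on the unscaled arrays (-1.01). BCL2A1 was lower by both probes, by -0.48 ± 0.06 for probe 1 and -0.61 ± 0.06 for probe 2. The BCL2 probes lay on opposite sides of 0, at -0.12 ± 0.07 for probe 1 and 0.23 ± 0.07 for probe 2, and their mean was 0.06. BCL2L1 was at -0.15 ± 0.09, within 2 SD of the noise, and turned to 0.06 with spike-in scaling.

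Among the BH3-only genes, BBC3 read 2020 in IMQ and 1319 in IMQ+DMD. That is 1.53-fold lower, a log2 difference of -0.61 ± 0.07 at the 4.61th percentile. PMAIP1 read 2162 and 2882 and was 0.41 ± 0.07 higher. Its spot was uneven on every array, at the 91.5th percentile of pixel spread in Ctrl, the 90.4th in IMQ, and the 99.2th in IMQ+DMD. BCL2L11 probe 1 (chr2:111925892-111925951, plus strand) read 3151 and 2511, a difference of -0.33 ± 0.06, while its other probes were 0.05 ± 0.06 and 0.28 ± 0.07 higher. Those other probes share 1 listed transcript with each other and none (0) with probe 1. BID read 49583 and 48354 and differed by -0.04 ± 0.05.

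The third comparison set IMQ+DMD against Ctrl and shares its arrays with the comparisons above. No member (0) was at least 2-fold higher and none (0) at least 2-fold lower, where the background was 3.18% and 5.22% of 27928 genes. The median was -0.14 over the members and 0.04 over all genes. BCL2A1 was above Ctrl by 0.56 ± 0.06 for probe 1, which shrank to 0.09 on the unscaled arrays and 0.15 on the spike-in scale, and by 0.97 ± 0.06 for probe 2. MCL1 was at -0.13 ± 0.06, but at -0.63 on the unscaled arrays and -0.57 on the spike-in scale. PMAIP1 was at -0.04 ± 0.06, but at -0.55 and -0.49 on those scales. BAX probe 1 was below Ctrl, by -0.78 ± 0.06 or 1.72-fold, as was BBC3, at -0.54 ± 0.06. BAX probe 2 did not share this, at 0.05 ± 0.07, and the mean of both BAX probes was -0.36. BCL2 probe 1 (0.46 ± 0.07) and BID (0.38 ± 0.06) were above Ctrl on the deposited scale and turned to -0.03 and -0.07 without normalization.

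The rest of the pathway was described with 56 genes in 4 lists, of which 55 could be compared. In IMQ against Ctrl, 7 of them were at least 2-fold higher, where the background was 4.18%, and 2 at least 2-fold lower, where it was 3.92%. In IMQ+DMD against IMQ, none was at least 2-fold higher (0) or lower (0), and the median was -0.01. Under other scalings 1 gene, BCL2L10, passed 2-fold there. The differences by list are plotted with those of the 10 members.

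Of 12 other BCL2 family genes, 1 was at least 2-fold lower in IMQ and none (0) was higher. It was BIK, a BH3-only gene, which read 1889 in Ctrl, 773 in IMQ, and 683 in IMQ+DMD, a difference of -1.29 ± 0.07 between IMQ and Ctrl. BCL2L2, which encodes the pro-survival protein BCL-w, had the largest difference upward among the probes that stand for a gene, 0.55 ± 0.07. The 3 probes of BNIP3L, a BH3-only relative that serves mitophagy, ranged from 0.35 to 1.54, and the one that stands for it was the lowest. In IMQ+DMD against IMQ the highest was BCL2L10 (0.94 ± 0.34) and the lowest HRK (-0.58 ± 0.50), both dim and with large spot noise. BCL2L10 was at 1.41 on the spike-in scale. HRK read 33.8, 43.0, and 28.7 on the 3 arrays. The list median was 0.10 in IMQ against Ctrl and turned to -0.36 on the unscaled arrays and -0.45 on the spike-in scale.

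Of 14 genes of the apoptosome, the caspases, and their inhibitors, 1 was at least 2-fold higher and 1 at least 2-fold lower in IMQ. BIRC3 encodes cIAP2, a ubiquitin ligase that blocks caspase-8 activation, and it read 87.5 in Ctrl, 1869 in IMQ, and 1314 in IMQ+DMD. This 21.4-fold difference between IMQ and Ctrl (log2 4.42 ± 0.24) was the largest of the 4 lists, and it was 3.67 after normexp background correction. Between IMQ+DMD and IMQ its log2 difference was -0.51 ± 0.07. BIRC5 (survivin), which serves cell division, read 15525, 7320, and 7893 and was -1.08 ± 0.07 in IMQ against Ctrl, or -0.97 with scaling to the 75th percentile. With scaling to the 75th percentile the list had 2 genes higher, as BIRC2 (0.93 on the deposited scale) just passed, and none (0) lower. On the spike-in scale it had 2 lower, as CASP6 reached -1.09. The list median was 0.06 and turned to -0.25 on the unscaled arrays.

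Of 13 death receptor genes, 2 were at least 2-fold higher in IMQ. TRAF1, an adaptor that works with the cIAPs, read 856 in Ctrl, 5214 in IMQ, and 4918 in IMQ+DMD. TNFAIP3 (A20), a brake on NF-κB and on death receptor signaling, read 1805, 6862, and 7453. Their log2 differences were 2.61 ± 0.07 and 1.93 ± 0.07 in IMQ against Ctrl. On the spike-in scale CASP8 was also 2-fold lower, at -1.09. The 4 probes of CFLAR, the inhibitor of caspase-8 known as FLIP, ranged from 0.36 to 2.25 in the same comparison, and the probe that stands for the gene was the lowest of them.

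Of 16 regulators of family members, 4 were at least 2-fold higher in IMQ and none (0) lower. REL, RELB, and NFKB1 encode NF-κB subunits, and they were higher by 2.57 ± 0.07, 1.84 ± 0.06, and 1.54 ± 0.07 on the log2 scale. CDKN1A (p21), which halts the cell cycle, was 1.29 ± 0.07 higher, which was 0.91 on the unscaled arrays and 0.82 on the spike-in scale. In IMQ+DMD against IMQ, REL was at -0.23 ± 0.06, RELB at -0.28 ± 0.05, NFKB1 at -0.27 ± 0.06, and CDKN1A at 0.21 ± 0.06. These were smaller in size than the differences of BCL2A1 (-0.48) and MCL1 (-0.88) in that comparison, a difference between single arrays that was not tested.

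**Figure D4:**
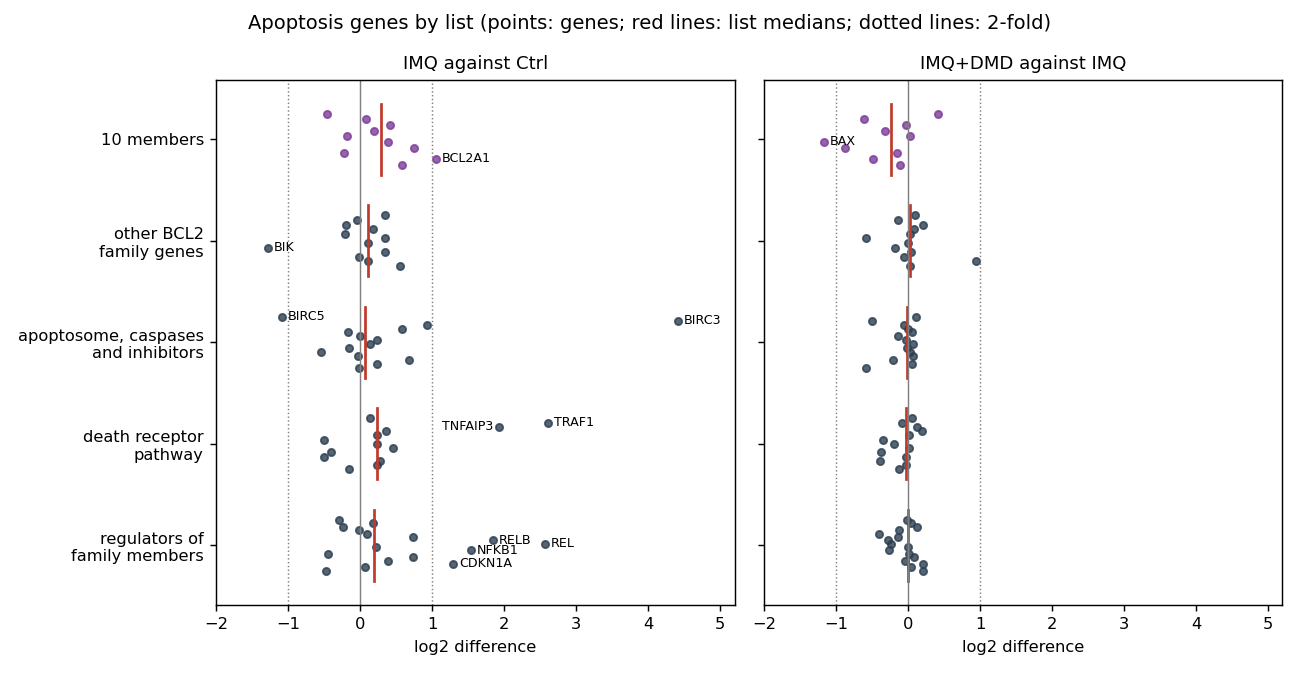
Log2 differences of the 10 BCL2 family members and of the other pathway genes by list (points, 1 per gene; red lines, medians) for IMQ against Ctrl (left) and IMQ+DMD against IMQ (right), 1 array per condition. Names mark genes at 2-fold or more, such as BIRC3 at 4.42 on the left and BAX at -1.16 on the right.

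The genes most like BCL2A1 and MCL1 were sought among 24702 genes by the distance between their pairs of log2 differences (IMQ minus Ctrl, and IMQ+DMD minus IMQ). For BCL2A1 the nearest 5 were C12orf60, TBX2-AS1, lnc-ENDOD1-1, lnc-PPIAL4G-4, and MAGEA8-AS1, at distances of 0.02 to 0.04 log2 units. For MCL1 they were lnc-ELF2-2, ATP6V1B1, lnc-TSN-6, NPW, and SNRK-AS1, at 0.04 to 0.05. The likeness rests on 3 arrays and 2 values per gene. All these distances were smaller than the spot noise of BCL2A1 and MCL1 (0.06 to 0.07), so the ranking carries no weight. Among so many genes, near ones were to be found in any case, and shared regulation was not tested.

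**Figure D5:**
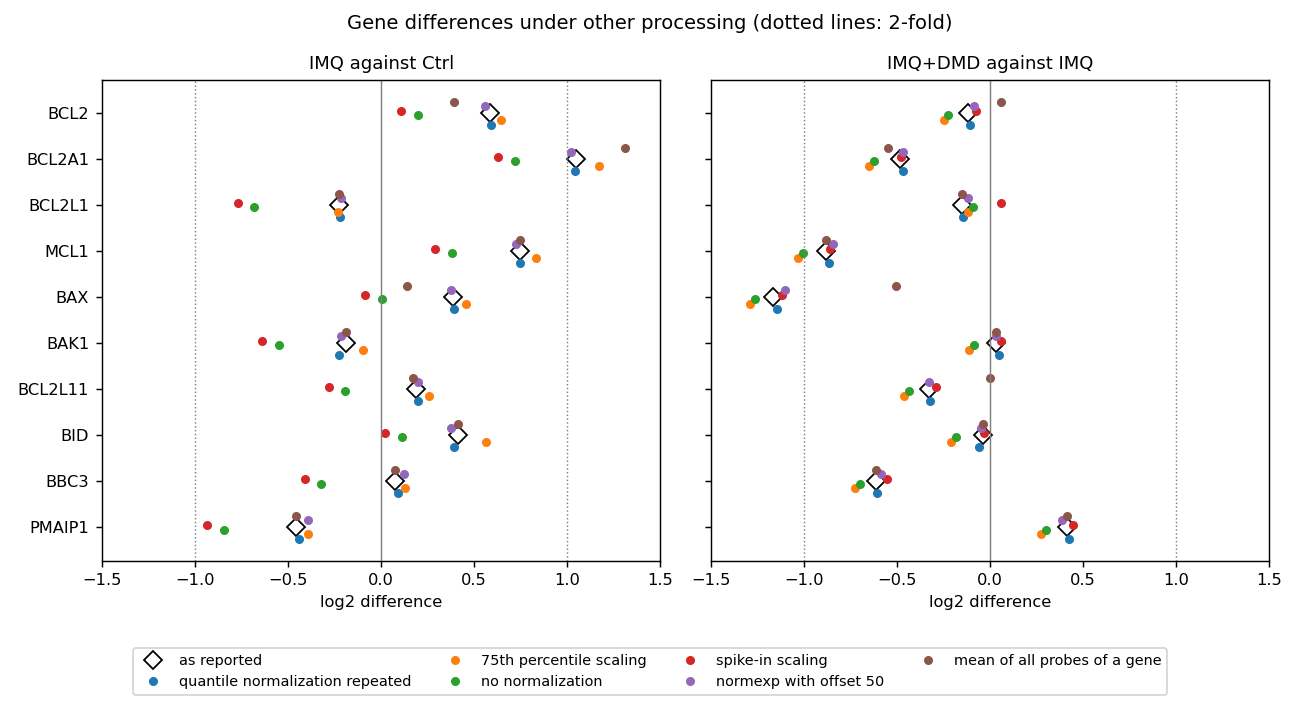
Log2 differences of the 10 members under the deposited normalization (open diamonds) and 6 other ways of processing (colored points), for IMQ against Ctrl (left) and IMQ+DMD against IMQ (right), 1 array per condition. BCL2A1 falls left of the 2-fold line on the left panel if the arrays are unscaled or scaled to the spike-in probes. BAX stays left of it on the right panel except when its probes are averaged.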

How the data were processed

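RNA of 3 conditions was measured on 1 one-color Agilent array each, all on 1 slide. The authors deposited the scanner output (Feature Extraction 10.5.1.1), in which intensity is background-corrected per spot, and a table with the raw and the quantile-normalized intensity of each probe. Raw intensity in that table was equal to the scanner output within 0.1% for all 57901 probes with 1 spot. Of the 300 probes with 10 spots, 258 in Ctrl, 255 in IMQ, and 247 in IMQ+DMD equaled the mean of their spots within 0.1%. Why the others differed was not tested.

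The deposited normalized intensity was converted to log2. A dim probe (one the scanner software did not mark as well above background) received at least the lowest value among the marked probes of that array, and a difference was given where the brighter array was well above background. The probe with the highest mean log2 value stood for a gene. Spot noise came from 300 probes with 10 spots: the median SD within 0.5 log2 units was taken on each array, and both were combined as the root of their summed squares. Genes were called at 2-fold. The number of arrays, 1 per condition, limits the precision. The difference script was tested on simulated data.

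The members and the lists were chosen with earlier results of these data known. Named were all 10 members and the markers, list genes at 2-fold (at most 8 per list and comparison, or the largest rise and fall where fewer than 2 passed), and the 5 genes nearest to the 2 members with the largest IMQ difference. PLAT, CFLAR, BNIP3L, BIRC2, CASP6, CASP8, and the values of named genes in further comparisons were added after their values were seen. The 9 alternatives were another quantile normalization, scaling to the 75th percentile, no normalization, scaling to 8 spike-in probes, normexp with an offset of 50, no filter on dim probes, a filter on both arrays, the mean of all probes, and 1.5-fold. Python 3.11.15, numpy 2.4.6, pandas 2.3.3, matplotlib 3.10.9, R 4.3.3, and limma 3.58.1 were used.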

Additional observations from a re-analysis of the deposited data

How the results depend on the processing

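Of 240 member differences recomputed under 8 alternatives, 159 moved by less than the spot noise, 81 moved by more, and 13 changed sign, 6 of them from within 2 SD of the noise. Part of the 159 was fixed in advance. The settings for dim probes could move no member, because no member probe was dim. Averaging probes could not move a member with a single probe. The only differences of 2-fold or more were BCL2A1 in IMQ against Ctrl and BAX in IMQ+DMD against IMQ, and neither reversed (0). In IMQ against Ctrl, the count of members at least 2-fold higher went from 1 to 0 on the unscaled arrays and to 0 on the spike-in scale, and to 2 (BCL2A1 and MCL1) at 1.5-fold, where 10.7% of all genes were higher. In IMQ+DMD against IMQ, the count of members at least 2-fold lower went from 1 to 2 (BAX and MCL1) with scaling to the 75th percentile and to 2 without normalization, to 0 with the mean of all probes, and to 3 (BAX, MCL1, and BBC3) at 1.5-fold, where 5.21% of all genes were lower. In IMQ+DMD against Ctrl, the count of members at least 2-fold lower went from 0 to 2 without normalization (BAX -1.26, BBC3 -1.02), to 1 with spike-in scaling (BAX -1.20), and to 1 (BAX) at 1.5-fold, where 12.2% of all genes were lower. The median gene then lay at -0.34 on the unscaled arrays and -0.28 on the spike-in scale, and 11.1% and 9.74% of all genes were at least 2-fold lower. In that comparison BCL2L11 turned from -0.14 to 0.17 with the mean of its probes. Under the other alternatives the counts above did not change. The counts in the opposite directions were 0 and stayed at 0, so they could have shown only a rise. With the mean of its probes, BCL2A1 was 1.31 higher in IMQ than in Ctrl. The cause of these moves was not tested. All 16 probes were well above background on every array. Normexp background correction moved PMAIP1 from -0.46 to -0.39 in IMQ against Ctrl and BBC3 from -0.54 to -0.47 in IMQ+DMD against Ctrl. No paired analysis was possible because each condition had 1 array.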
